A study of Mus musculus with 6 samples.

Results

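The genes described here build the nuclear pore and carry cargo through it. They were chosen by symbol: numbered nucleoporins (Nup), importin alpha genes (Kpna), numbered importins (Ipo), exportins (Xpo) and transportins (Tnpo), together with Kpnb1, Ran, Rangap1, Rcc1 and Cse1l. This gave 47 of the 23308 symbols in the tables, of which 20 are nucleoporins and 27 are transport receptors or genes of the Ran cycle. The 6 libraries came from messenger RNA of 60 mouse oocytes or embryos each and were sequenced from both ends. YAP-null 4-cell embryos and wild-type 4-cell embryos gave 1 library each, and YAP-null and wild-type oocytes at the germinal vesicle (GV) stage, the fully grown oocyte before it resumes meiosis, gave 2 libraries each. All females had an ICR background, were 21 to 23 days old and had received PMSG and hCG, gonadotropins that stimulate follicle growth and ovulation; embryos came from mated females.

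The YAP-null females are labelled YAP-/- and Yap1-deleted, that is, without the gene of the transcriptional co-activator YAP. The labels do not say which cells lacked Yap1 or what drove a deletion, nor do they give the fathers' genotype. The source field of the 4-cell samples names GV oocytes, whereas their titles and stage fields name 4-cell embryos; the titles were followed. Nothing in the labels says that the replicates came from separate animals, so p-values measure only the spread between these samples, which may be technical.

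A nuclear pore is a ring of nucleoporins set into the nuclear envelope, with an outer and an inner ring as scaffold, a central channel lined with disordered repeats, filaments on the cytoplasmic side and a basket on the nuclear side. Importin alpha proteins bind the classical nuclear localisation signal of a cargo and enter the nucleus with importin beta (Kpnb1), while other members of the importin beta family and the exportins bind their cargoes themselves. Direction comes from the small GTPase Ran, which is loaded with GTP by Rcc1 on chromatin and made to hydrolyse it by Rangap1 in the cytoplasm. In the mouse the egg supplies transcripts to the early embryo, which activates its own genome mainly at the 2-cell stage, so that 4-cell embryos have passed from maternal to embryonic transcription.

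The deposited values are FPKM, mapped fragments scaled to transcript length and to library size, so they are relative to each library's total. Changes in the amount of RNA per oocyte or embryo are therefore not seen, and in these pooled samples fewer cells holding a transcript and less RNA per cell cannot be told apart. Differences below are on the log2(FPKM + 1) scale, which understates the change of genes near 0. Absolute depth is unknown because the tables hold no counts; the lowest values put relative depth between 0.314 and 1, with wild-type GV library 1 set to 1, and the estimates for the 4-cell libraries rest on few genes. Yap1 itself was at 33.3 FPKM (YAP-null) and 89.7 FPKM (wild type) in 4-cell embryos, and at 10.8 and 10.04 FPKM (YAP-null) and 248 and 154 FPKM (wild type) in GV oocytes. The 10 oocyte markers summed to 1701 FPKM (YAP-null) and 179.6 FPKM (wild type) in 4-cell embryos, against 9085 to 12094 FPKM in the GV libraries. Each of the 10 reached 1 FPKM in all libraries but the wild-type 4-cell one, where 9 did. The 8 markers of the 4-cell embryo summed to 1021 and 1259 FPKM in the YAP-null and wild-type 4-cell libraries, against 379 to 651 FPKM in the GV libraries. Pou5f1 and Klf17, which made up most of the GV sums, overlapped between the stages. Pou5f1 had 322 and 207 FPKM in YAP-null and wild-type 4-cell embryos, against 161 to 298 FPKM in GV oocytes. Klf17 had 290 and 348 FPKM, against 148 to 322 FPKM. Of 12 granulosa and cumulus cell genes, which could come from the follicle cells around the oocyte, 5 or 6 reached 1 FPKM in GV libraries (sums of 39.7 to 48.7 FPKM). Only Nr5a2, which embryos also use, reached it at the 4-cell stage. Of 4 blood genes, Hba-a1 alone reached 1 FPKM in the 4-cell libraries (25.9 and 26.3 FPKM in YAP-null and wild type), and the sum of the 4 was at most 1.60 FPKM in any GV library.

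The promoters of 3 importin alpha genes are shown. The RefSeq promoters used held no entry for the importin alpha genes Kpna1, Kpna3 and Kpna6. Of the genes shown, Kpna7 was high in oocytes, Kpna4 in embryos and Kpna2 in both. Each runs 5′ to 3′ on the strand of the transcript (minus) from 250 bases before to 50 bases after the RefSeq start in GRCm38.p6, with GC boxes (GGGCGG) and CCAAT boxes (CCAAT), read on either strand, in capitals.
Kpna7 (chr5:145009587-145009886): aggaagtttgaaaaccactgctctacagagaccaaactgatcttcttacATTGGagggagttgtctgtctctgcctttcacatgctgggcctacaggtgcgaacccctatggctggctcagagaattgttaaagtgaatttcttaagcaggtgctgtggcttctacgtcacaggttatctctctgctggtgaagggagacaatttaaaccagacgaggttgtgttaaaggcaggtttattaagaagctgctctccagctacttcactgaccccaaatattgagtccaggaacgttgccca
Kpna2 (chr11:106999476-106999775): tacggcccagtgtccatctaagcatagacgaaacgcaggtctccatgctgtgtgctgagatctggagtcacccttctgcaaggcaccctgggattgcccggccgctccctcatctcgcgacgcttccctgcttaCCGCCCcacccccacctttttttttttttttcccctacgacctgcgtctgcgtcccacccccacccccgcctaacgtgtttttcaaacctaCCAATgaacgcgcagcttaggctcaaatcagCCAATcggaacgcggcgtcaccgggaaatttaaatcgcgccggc
Kpna4 (chr3:69127043-69127342): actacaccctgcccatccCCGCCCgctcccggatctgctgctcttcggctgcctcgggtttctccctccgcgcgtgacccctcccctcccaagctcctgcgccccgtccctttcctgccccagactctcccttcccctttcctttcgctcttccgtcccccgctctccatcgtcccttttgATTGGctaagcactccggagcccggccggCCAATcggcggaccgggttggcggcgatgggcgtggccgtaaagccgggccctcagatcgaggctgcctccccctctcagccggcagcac
The Kpna7 window held 1 CCAAT box and no GC box, and its GC content was 46.7%. The Kpna2 and Kpna4 windows each held 1 GC box and 2 CCAAT boxes, at GC contents of 57.7% and 68.7%. Over the 44 promoters that RefSeq lists for 37 of the 47 genes, the median GC content was 64.5%, against 52.7% over all 32851 promoters in the table. A GC box was found in 29 of the 44 (65.9%), against 35.7% of all promoters, and a CCAAT box in 22 of the 44 (50%), against 37.4%. TATAAA was present in 4 of the 44 (9.09%), against 13.6% of all promoters. The core motif of TEAD factors, the DNA-binding partners of YAP (GGAATG, both strands), occurred in 6 of the 44 (13.6%), against 14.7%: those of Ipo13, Nup160, Nup210, Nup93, Tnpo1 and Xpo6. None of the 3 printed windows held it. These letter matches describe the windows and are not evidence of binding.

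Between GV oocytes and 4-cell embryos the transport receptors and the Ran cycle were mostly higher in embryos, while few nucleoporins passed the test in either direction. Of the 47 genes, 45 averaged at least 1 FPKM over the 6 libraries and were tested with limma over 11451 genes. In 4-cell embryos 19 were higher and 5 were lower than in GV oocytes at an adjusted p under 0.05 (Benjamini-Hochberg), and 21 were called in neither direction. Over all genes tested, 28.2% were called higher, 27.8% lower and 56% in either direction. Both 4-cell libraries lay above all 4 GV libraries for 23 of the 45 genes and below all 4 for 11, against 35.1% and 35.2% of all genes. The median difference of the 45 was 0.70, against -0.10 over all genes, and under quantile scaling, which moved the median of all genes to -0.21, it was 0.53. Kpna1 passed the filter only through its 4-cell values, so counts that include it are not evidence for the direction of the rest. Nup210 and Nup210l, the pore membrane proteins of the rule, fell below the filter: Nup210 had 0.225 and 0.138 FPKM in YAP-null and wild-type 4-cell embryos and 0.429 to 2.12 FPKM in GV oocytes, and Nup210l stayed below 1 FPKM in every library. The 4-cell side holds 1 library of each genotype, and 15 of the 45 genes were called without the wild-type 4-cell library and 17 without the YAP-null one, against 24 with both.

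**Figure D1:**
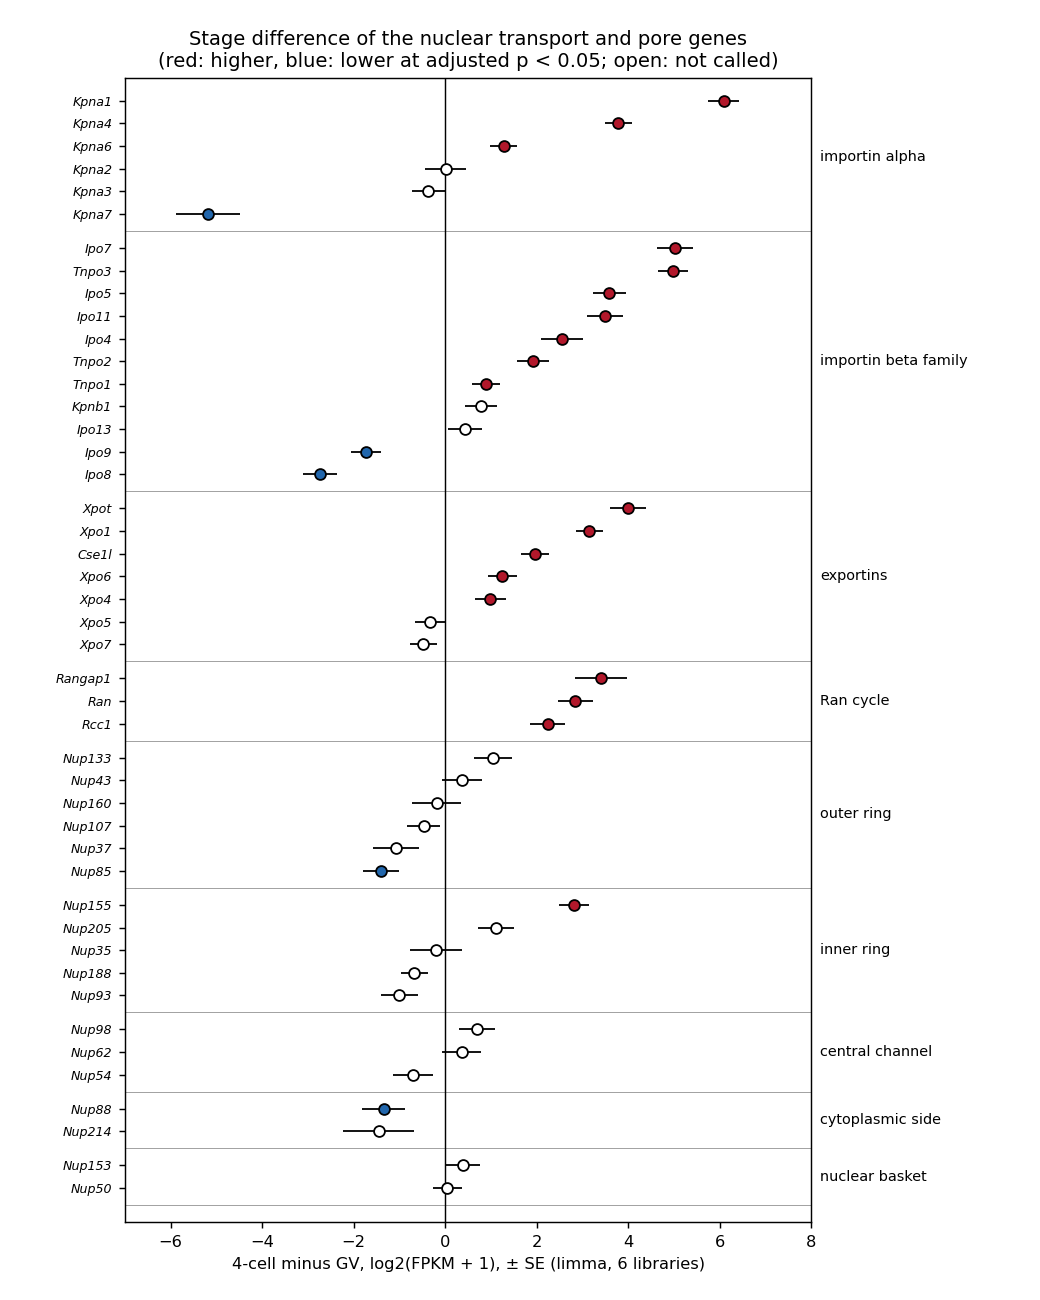
Stage difference (4-cell minus GV, log2(FPKM + 1), x axis) of the 45 genes tested, grouped by role down the page; points are limma estimates over 6 libraries, bars ± 1 SE, red higher and blue lower at an adjusted p under 0.05, open not called. Receptors and Ran cycle genes spread from -5.18 (Kpna7) to 6.09 (Kpna1), whereas 15 of the 18 nucleoporins are open.

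The importin alpha genes went different ways: Kpna4 and Kpna6 were higher, Kpna7 was lower, Kpna2 and Kpna3 were called in neither direction, and Kpna1 was near 0 in oocytes. Kpna7, the importin alpha subtype known from mouse oocytes and the earliest embryos, lay at chr5:145744613-145770505 in mm9, the build of the files. It had 18.5 FPKM (YAP-null) and 1.62 FPKM (wild type) in 4-cell embryos, against 266 and 223 FPKM (YAP-null) and 333 and 226 FPKM (wild type) in GV oocytes. Every GV library was above both 4-cell libraries, and the stage difference was -5.18 ± 0.70 (adjusted p = 0.00146, limma), with -3.65 among the YAP-null and -6.71 among the wild-type libraries. The YAP-null 4-cell library held 7.56% of the mean level of YAP-null GV oocytes, and the wild-type one 0.580% of that of wild-type GV oocytes. By rank of FPKM within a library, Kpna7 stood at 4108 and 9427 in the YAP-null and wild-type 4-cell libraries and between 149 and 211 in the GV libraries.

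Kpna1 (chr16:35983449-36036248), a broadly expressed subtype, had 81.9 FPKM (YAP-null) and 95.8 FPKM (wild type) in 4-cell embryos, against 0 and 0.600 FPKM (YAP-null) and 0.320 and 0.427 FPKM (wild type) in GV oocytes. It was listed at 0 in 1 YAP-null GV library and below 1 FPKM in the others, so no fold is given. Because it passed the filter only through the 4-cell libraries, its difference of 6.09 is a description and its test is not used. Kpna4 (chr3:68876143-68931014) had 26.4 FPKM (YAP-null) and 30.7 FPKM (wild type) in 4-cell embryos, against 1.10 and 1.23 FPKM (YAP-null) and 1.01 and 1.23 FPKM (wild type) in GV oocytes. Both 4-cell libraries were far above all 4 GV libraries, and the difference was 3.78 ± 0.29 (adjusted p = 0.000265, limma). Kpna6 (chr4:129321223-129350011), a close relative of Kpna1, had 44.9 FPKM (YAP-null) and 40.1 FPKM (wild type) in 4-cell embryos, against 17.2 and 19.9 FPKM (YAP-null) and 14.3 and 16.5 FPKM (wild type) in GV oocytes. Its groups did not overlap between the stages, and its difference was 1.28 ± 0.30 (adjusted p = 0.0113, limma; 0.0666 without the wild-type 4-cell library).

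Kpna2 (chr11:106849943-106860839), the most abundant importin alpha in all 6 libraries, had 630.0 FPKM (YAP-null) and 655 FPKM (wild type) in 4-cell embryos, against 776 and 519 FPKM (YAP-null) and 746 and 548 FPKM (wild type) in GV oocytes. The 4-cell values lay inside the GV range, with a difference of 0.01 ± 0.44 (adjusted p = 0.985, limma) whose sign turned under quantile scaling (-0.21) and equal-sum scaling (-0.074). Kpna3 (chr14:61984023-62058784), the nearest relative of Kpna4, had 36.9 FPKM (YAP-null) and 21.3 FPKM (wild type) in 4-cell embryos, against 48.5 and 30.4 FPKM (YAP-null) and 33.7 and 35.2 FPKM (wild type) in GV oocytes. The stages overlapped, and the difference was -0.36 ± 0.35 (adjusted p = 0.408, limma).

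**Figure D2:**
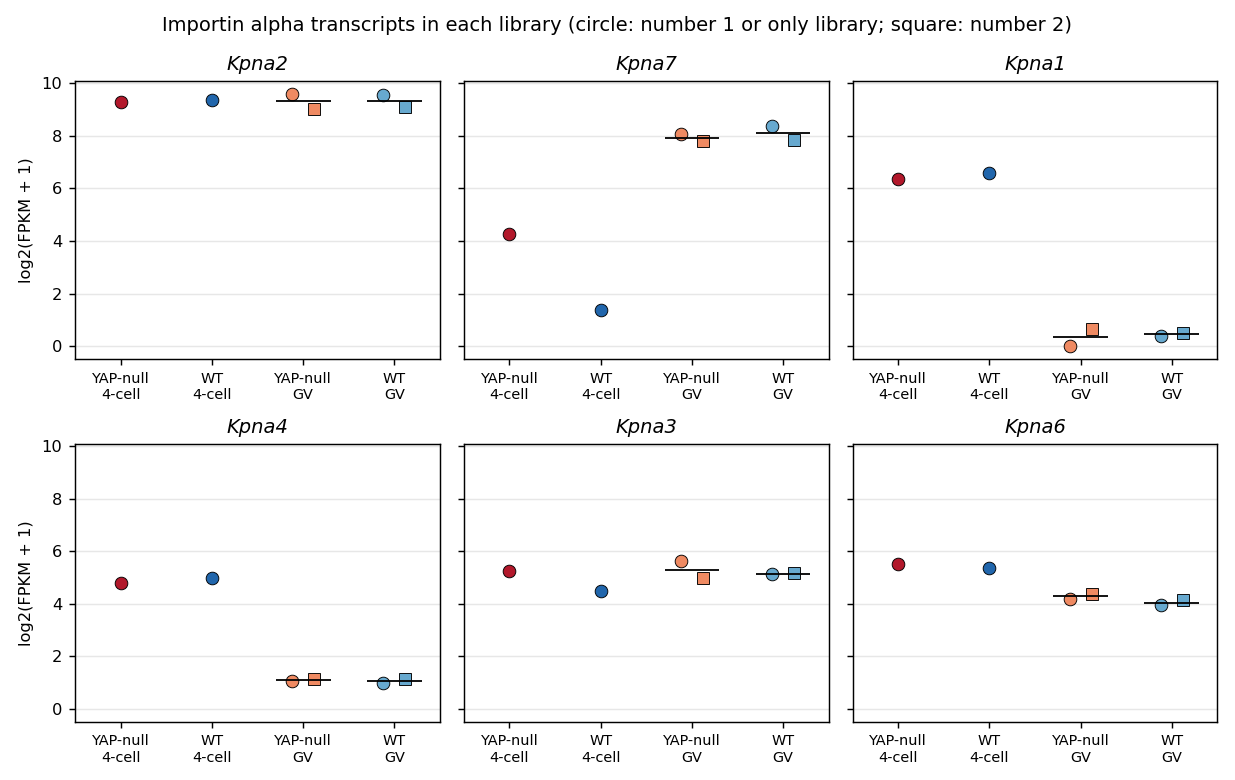
Levels of the 6 importin alpha genes in log2(FPKM + 1) (y axis) for YAP-null and wild-type 4-cell embryos (1 library each) and YAP-null and wild-type GV oocytes (2 libraries each, with their mean as a line). Kpna7 is at 18.5 and 1.62 FPKM in YAP-null and wild-type 4-cell embryos, and Kpna2 is between 519 and 776 FPKM throughout. In GV oocytes Kpna1 is at 0 to 0.600 FPKM and Kpna4 at 1.01 to 1.23 FPKM.

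As shares of the summed importin alpha FPKM, which compares genes per transcript length, Kpna7 made up 2.20% in YAP-null and 0.192% in wild-type 4-cell embryos, against 27.2% ± 2.35 in GV oocytes (SD, n = 4). Kpna2 made up 75.1% and 77.6% in YAP-null and wild-type 4-cell embryos, against 66.9% ± 2.07 in GV oocytes (SD, n = 4). The Kpna1 share was 9.77% and 11.3% in YAP-null and wild-type 4-cell embryos, against at most 0.0756% in any GV library. Kpna2 was the leading subtype at both stages, and the subtype in the position after it was Kpna1 in both 4-cell libraries and Kpna7 in all 4 GV libraries. Kpna4 held 3.14% and 3.64%, and Kpna6 5.35% and 4.75%, of the sum in YAP-null and wild-type 4-cell embryos, against means of 0.123% and 1.83% in GV oocytes. The sum itself was 838.5 and 844 FPKM in YAP-null and wild-type 4-cell embryos, against 1109 and 793.5 FPKM in YAP-null and 1128 and 828 FPKM in wild-type GV oocytes, so the 4-cell sums lay inside the GV range. These shares carry no test: 2 against 4 libraries cannot go below 0.0667 in an exact two-sided permutation test.

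In the importin beta family 7 of 11 genes were higher and 2 lower in 4-cell embryos, against 28.2% and 27.8% of all genes. Their median difference was 1.92, and under each of the 3 scalings 6 were called higher and 2 lower. The family's summed FPKM was 661 and 1001 in YAP-null and wild-type 4-cell embryos, against 217 to 273 in 3 GV libraries and 280.1 in wild-type GV library 2. Ipo7 (chr7:117161939-117198628), which imports ribosomal proteins and, with Kpnb1, histone H1, had 124 FPKM (YAP-null) and 233 FPKM (wild type) in 4-cell embryos, against 4.66 and 5.05 FPKM (YAP-null) and 2.997 and 4.65 FPKM (wild type) in GV oocytes. Its difference was 5.02 ± 0.40 (adjusted p = 0.000283, limma), with both 4-cell libraries above all GV libraries; the model of the small RNA gene Snora23 overlaps its own. Relative to the GV mean of the same genotype, it was 25.5-fold higher in YAP-null and 60.9-fold higher in wild-type 4-cell embryos. Tnpo3 (chr6:29490827-29559607), the import receptor of SR splicing factors, had 76.5 FPKM (YAP-null) and 87.0 FPKM (wild type) in 4-cell embryos, against 1.20 and 2.23 FPKM (YAP-null) and 1.57 and 1.59 FPKM (wild type) in GV oocytes. The difference was 4.98 ± 0.33 (adjusted p = 0.000172, limma), again without overlap.

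Ipo5 (chr14:121310416-121347266), which carries ribosomal proteins and histones, had 139 FPKM (YAP-null) and 286 FPKM (wild type) in 4-cell embryos, against 15.8 and 15.7 FPKM (YAP-null) and 14.9 and 16.4 FPKM (wild type) in GV oocytes. The 4 GV values lay close together, and the difference was 3.59 ± 0.36 (adjusted p = 0.000566, limma). Ipo11 (chr13:107584519-107726995), which imports ubiquitin-conjugating enzymes, had 24.7 FPKM (YAP-null) and 43.2 FPKM (wild type) in 4-cell embryos, against 2.39 and 2.31 FPKM (YAP-null) and 2.25 and 1.20 FPKM (wild type) in GV oocytes. Its difference was 3.49 ± 0.39 (adjusted p = 0.000770, limma), and the stages did not overlap. Ipo4, an importer of histones, was higher by 2.55 ± 0.46 (adjusted p = 0.00425, limma). The M9-signal importers Tnpo2 and Tnpo1 were higher by 1.92 ± 0.34 and 0.89 ± 0.30 (adjusted p = 0.00414 and 0.0447, limma).

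Ipo8 (chr6:148719206-148779989), the closest relative of Ipo7, went the other way. It had 14.4 FPKM (YAP-null) and 6.42 FPKM (wild type) in 4-cell embryos, against 66.9 and 76.4 FPKM (YAP-null) and 56.9 and 81.5 FPKM (wild type) in GV oocytes, a difference of -2.73 ± 0.37 (adjusted p = 0.00156, limma) without overlap. Thus in oocytes Ipo8 was the more abundant of the pair in every library, and in 4-cell embryos Ipo7 was in both. Ipo9 (chr1:137278892-137327068), a carrier of histones H2A and H2B, had 4.71 FPKM (YAP-null) and 6.46 FPKM (wild type) in 4-cell embryos, against 19.2 and 22.5 FPKM (YAP-null) and 17.2 and 24.2 FPKM (wild type) in GV oocytes. The difference was -1.73 ± 0.33 (adjusted p = 0.00527, limma; 0.0527 without the YAP-null 4-cell library). Kpnb1 itself, the partner of every importin alpha, had 106 FPKM (YAP-null) and 122 FPKM (wild type) in 4-cell embryos, against 57.0 and 77.2 FPKM (YAP-null) and 52.6 and 80.1 FPKM (wild type) in GV oocytes. Both 4-cell values were above all GV values, but the difference of 0.78 ± 0.35 was not called (adjusted p = 0.103, limma), nor was that of Ipo13, which works in both directions (0.44 ± 0.37, adjusted p = 0.348, limma).

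Among the exportins 5 of 7 were higher in 4-cell embryos and none was lower, against 28.2% and 27.8% of all genes. Their median difference was 1.25, and 4 were called higher under quantile and under equal-sum scaling. Xpot (chr10:121024436-121063372), which exports tRNA, had 22.3 FPKM (YAP-null) and 46.0 FPKM (wild type) in 4-cell embryos, against 1.01 and 1.501 FPKM (YAP-null) and 0.654 and 1.23 FPKM (wild type) in GV oocytes. Its difference was 3.99 ± 0.40 (adjusted p = 0.000568, limma). Xpo1 (chr11:23156041-23197597), the receptor for leucine-rich export signals also called CRM1, had 103 FPKM (YAP-null) and 125 FPKM (wild type) in 4-cell embryos, against 11.5 and 12.2 FPKM (YAP-null) and 10.9 and 13.03 FPKM (wild type) in GV oocytes. The GV libraries lay close together and far below both 4-cell libraries, and the difference was 3.15 ± 0.30 (adjusted p = 0.000489, limma). That is 8.68-fold (YAP-null) and 10.4-fold (wild type) the GV mean of the same genotype. The ratio of Xpo1 to Kpnb1 FPKM was 0.971 and 1.02 in YAP-null and wild-type 4-cell embryos, against 0.202 and 0.158 in YAP-null and 0.206 and 0.163 in wild-type GV oocytes.

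Cse1l, which returns importin alpha to the cytoplasm, was higher by 1.97 ± 0.31 (adjusted p = 0.00257, limma). Xpo6, the exporter of actin, was higher by 1.25 ± 0.32 (adjusted p = 0.0164, limma). For Xpo4, which exports the translation factor eIF5A, the difference was 0.98 ± 0.34 (adjusted p = 0.0466, limma), close to the threshold of 0.05. Xpo5, which exports microRNA precursors, and Xpo7 were not called; Xpo5 had 15.3 FPKM (YAP-null) and 24.8 FPKM (wild type) in 4-cell embryos, against 27.8 and 18.7 FPKM (YAP-null) and 28.7 and 25.5 FPKM (wild type) in GV oocytes, and its gene model overlaps that of Mir693. The difference was -0.34 ± 0.33 for Xpo5 and -0.48 ± 0.30 for Xpo7 (adjusted p = 0.415 and 0.222, limma).

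All 3 genes of the Ran cycle were higher in 4-cell embryos, also under each of the 3 scalings, against 28.2% of all genes as deposited. Ran (chr5:129526031-129530196) had 171 FPKM (YAP-null) and 259 FPKM (wild type) in 4-cell embryos, against 34.4 and 24.1 FPKM (YAP-null) and 36.4 and 21.8 FPKM (wild type) in GV oocytes. Its difference was 2.84 ± 0.38 (adjusted p = 0.00147, limma) without overlap; its near copy Rasl2-9, with which reads could be shared, was listed at 1.95 to 5.33 FPKM over the 6 libraries. Its 4-cell level was 5.87-fold (YAP-null) and 8.91-fold (wild type) the GV mean. Rangap1 (chr15:81534678-81560349) had 71.7 FPKM (YAP-null) and 103 FPKM (wild type) in 4-cell embryos, against 4.46 and 11.6 FPKM (YAP-null) and 3.82 and 12.8 FPKM (wild type) in GV oocytes. The difference was 3.40 ± 0.56 (adjusted p = 0.00315, limma), but the call was lost without the YAP-null (0.0569) or the wild-type (0.0929) 4-cell library.

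Rcc1 (chr4:131887834-131901665), named here to complete the cycle, had 102 FPKM (YAP-null) and 155 FPKM (wild type) in 4-cell embryos, against 31.6 and 21.4 FPKM (YAP-null) and 32.7 and 19.9 FPKM (wild type) in GV oocytes. Its difference was 2.25 ± 0.38 (adjusted p = 0.00349, limma). Rangap1 was higher in the GV libraries numbered 2 and Rcc1 in those numbered 1, so that their ratio (Rcc1 to Rangap1 FPKM) was 1.43 and 1.51 in YAP-null and wild-type 4-cell embryos, and 7.08 and 1.84 in YAP-null and 8.58 and 1.55 in wild-type GV oocytes.

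Of the 18 nucleoporins tested 1 was higher and 2 were lower in 4-cell embryos, against 28.2% and 27.8% of all genes. Their median difference was -0.19. Not being called does not mean unchanged. Without a call, both 4-cell libraries lay below all GV libraries for Nup107, Nup188, Nup214, Nup37 and Nup93. They lay above all GV libraries for Nup133, Nup205 and Nup98. By position, the outer ring had 0 higher and 1 lower of 6, the inner ring 1 and 0 of 5, the central channel 0 and 0 of 3, the cytoplasmic side 0 and 1 of 2, and the nuclear basket 0 and 0 of 2. The summed FPKM of the 20 nucleoporins was 868 and 774 in YAP-null and wild-type 4-cell embryos, against 1234 and 907 in YAP-null and 1150.3 and 956 in wild-type GV oocytes. Nup155 (chr15:8059313-8109859), an inner ring protein, was the nucleoporin called higher. It had 24.5 FPKM (YAP-null) and 34.8 FPKM (wild type) in 4-cell embryos, against 2.47 and 3.26 FPKM (YAP-null) and 3.12 and 4.53 FPKM (wild type) in GV oocytes, a difference of 2.82 ± 0.32 (adjusted p = 0.000845, limma) without overlap. Its inner ring partners Nup93, Nup188 and Nup205 were not called, at -0.997 ± 0.40, -0.67 ± 0.30 and 1.10 ± 0.39 (adjusted p = 0.0733, 0.1004 and 0.0518, limma).

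Nup85 (chr11:115425758-115445238), in the Y-shaped complex of the outer ring, had 31.5 FPKM (YAP-null) and 61.8 FPKM (wild type) in 4-cell embryos, against 133 and 99.9 FPKM (YAP-null) and 151 and 100.02 FPKM (wild type) in GV oocytes. The stages did not overlap, and the difference was -1.41 ± 0.39 (adjusted p = 0.0223, limma; 0.0627 without wild-type GV library 1, 0.157 without the YAP-null and 0.0554 without the wild-type 4-cell library). Nup88 (chr11:70756560-70783475), on the cytoplasmic side, had 42.3 FPKM (YAP-null) and 37.8 FPKM (wild type) in 4-cell embryos, against 159 and 69.8 FPKM (YAP-null) and 137 and 73.1 FPKM (wild type) in GV oocytes. Its difference was -1.34 ± 0.47 (adjusted p = 0.0492, limma), and it was called in 6 of 15 alternative settings; its end overlaps that of Rabep1, and the labels do not say whether counting used strand. Nup214, its partner, had 35.0 FPKM (YAP-null) and 21.9 FPKM (wild type) in 4-cell embryos, against 38.9 and 163 FPKM (YAP-null) and 36.7 and 154 FPKM (wild type) in GV oocytes. The GV values fell into low libraries numbered 1 and high libraries numbered 2, and the difference of -1.45 ± 0.77 was not called (adjusted p = 0.151, limma).

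The other outer ring members Nup107, Nup133, Nup160, Nup37 and Nup43 ranged from -1.08 ± 0.50 for Nup37 to 1.05 ± 0.41 for Nup133, and none was called (adjusted p = 0.112 and 0.0704, limma, for these ends). In the channel, Nup54, Nup62 and Nup98 were at -0.70 ± 0.44, 0.36 ± 0.42 and 0.70 ± 0.38 (adjusted p = 0.215, 0.495 and 0.166, limma). The basket proteins Nup153 and Nup50 were at 0.39 ± 0.37 and 0.05 ± 0.32 (adjusted p = 0.402 and 0.910, limma).

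Of 35 further gene symbols of the pore, of transport and of the nuclear lamina, 33 were tested. The symbol Ndc1 was not listed, its gene being listed as Tmem48, and Nup62cl fell below the filter. Of the 33 tested, 14 were higher and 3 lower in 4-cell embryos, against 28.2% and 27.8% of all genes. Other transport and Ran factors had 9 higher and 1 lower of 14, and the lamina 2 and 0 of 6. Other pore components had 3 and 2 of 13 (23.1% and 15.4%), below the shares over all genes. Ncbp1, the large subunit of the nuclear cap-binding complex, had 124 FPKM (YAP-null) and 141 FPKM (wild type) in 4-cell embryos, against 5.56 and 2.62 FPKM (YAP-null) and 4.89 and 2.05 FPKM (wild type) in GV oocytes. Its difference was 4.88 ± 0.43 (adjusted p = 0.000403, limma). Ranbp2, the main protein of the cytoplasmic filaments, had 34.7 FPKM (YAP-null) and 53.4 FPKM (wild type) in 4-cell embryos, against 2.85 and 6.08 FPKM (YAP-null) and 1.48 and 6.54 FPKM (wild type) in GV oocytes, a difference of 3.21 ± 0.56 (adjusted p = 0.00387, limma). Seh1l, of the outer ring, had 90.7 FPKM (YAP-null) and 105 FPKM (wild type) in 4-cell embryos, against 24.1 and 15.7 FPKM (YAP-null) and 21.3 and 9.81 FPKM (wild type) in GV oocytes. Ahctf1, which starts pore assembly on chromatin, had 50.9 FPKM (YAP-null) and 55.3 FPKM (wild type) in 4-cell embryos, against 5.18 and 16.8 FPKM (YAP-null) and 4.53 and 18.3 FPKM (wild type) in GV oocytes. Neither gene overlapped between the stages, and their differences were 2.46 ± 0.43 and 2.37 ± 0.64 (adjusted p = 0.00374 and 0.0206, limma).

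The 3 genes called lower were Ddx19a, a helicase of mRNA export, Aaas, a pore protein also called ALADIN, and Sec13, which serves the outer ring and vesicle coats. Ddx19a had 46.5 FPKM (YAP-null) and 25.5 FPKM (wild type) in 4-cell embryos, against 199.7 and 183 FPKM (YAP-null) and 200.5 and 187 FPKM (wild type) in GV oocytes, a difference of -2.44 ± 0.36 (adjusted p = 0.00201, limma). Aaas had 22.7 FPKM (YAP-null) and 21.4 FPKM (wild type) in 4-cell embryos, against 70.3 and 52.7 FPKM (YAP-null) and 74.0 and 56.8 FPKM (wild type) in GV oocytes. Sec13 had 26.5 FPKM (YAP-null) and 40.9 FPKM (wild type) in 4-cell embryos, against 70.2 and 106 FPKM (YAP-null) and 81.5 and 116 FPKM (wild type) in GV oocytes. Again no 4-cell value reached the GV range; for Aaas and Sec13 the differences were -1.47 ± 0.32 and -1.45 ± 0.36 (adjusted p = 0.00937 and 0.0155, limma). Ranbp2, Seh1l, Ahctf1, Aaas and Sec13 each lost the call without at least 1 of the 4-cell libraries.

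In GV oocytes no nuclear pore or transport gene was called different between YAP-null and wild type, in a design of 2 libraries against 2. Of 45 genes that averaged at least 1 FPKM over the 4 GV libraries, 0 were called by limma, as were 0 of all 10462 genes (0%; 2 with a replicate block and 2 to 7 with any 1 library left out, none of them among the 45). Likewise 0 of the 45 had an unadjusted p under 0.05, against 22 (0.21%) of all genes. Same-numbered libraries deviated together (correlation 0.849 over 10462 genes). This shared spread stays in the error of the fit and enlarges its p-values. Differences (YAP-null minus wild type) ran from -0.31 to 0.35, with a median of 0.03, against -0.0035 over all genes. The median of the 45 was -0.12 with equal sums and 0.14 without YAP-null library 2, so its sign is not settled. Taken between the number 1 libraries the median was 0.11, and between the number 2 libraries -0.08. The groups did not overlap for 5 of the 45, all higher in YAP-null oocytes (Ipo7, Ipo11, Kpna6, Tnpo1 and Xpo7). Over all genes 5.1% were higher and 5.68% lower without overlap. This was counted on deposited values, whose sum was 462324 FPKM in YAP-null library 1 and 362849 to 370735 FPKM in the other GV libraries. Equal sums would lower YAP-null library 1 against the others, and overlap was not counted there.

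Kpna6 was at 0.25 ± 0.34, Ipo7 at 0.30 ± 0.38 and Ipo11 at 0.32 ± 0.38 (± SE; limma, adjusted p of 1.00 for each). Kpna7, the oocyte subtype, was at -0.17 ± 0.39 (adjusted p = 1.00, limma), with values that overlapped between YAP-null and wild-type oocytes. With 2 libraries against 2, an exact two-sided permutation test of a single gene cannot go below 0.333. The Yap1 values given above, by contrast, did not come near each other in these 4 libraries, yet Yap1 was not called either. An uncalled gene in this comparison is therefore not shown to be equal between the genotypes.

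Libraries of the same genotype were apart for some genes. From number 1 to number 2, 7 of the 45 genes were at least 2-fold apart (on the log2(FPKM + 1) scale) in YAP-null and 4 in wild-type oocytes, against 26.7% and 23.3% of all genes. Nup214, Nup35 and Rangap1 passed this size in both genotypes. Nup214 was higher in number 2 by 2.04 in both genotypes. Nup35, of the inner ring, had 89.6 FPKM (YAP-null) and 74.5 FPKM (wild type) in 4-cell embryos, and 157 and 55.3 FPKM (YAP-null) and 148 and 60.9 FPKM (wild type) in GV oocytes; number 2 was lower by 1.48 in YAP-null and 1.26 in wild-type oocytes. Rangap1 was higher in number 2 by 1.21 in YAP-null and 1.52 in wild-type oocytes. Tpr, the large basket protein outside the symbol rule, chosen after its values were seen, had 51.2 FPKM (YAP-null) and 87.6 FPKM (wild type) in 4-cell embryos, and 0.488 and 20.4 FPKM (YAP-null) and 0.780 and 21.1 FPKM (wild type) in GV oocytes. The labels do not say what number 1 and number 2 stand for.

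**Figure D3:**
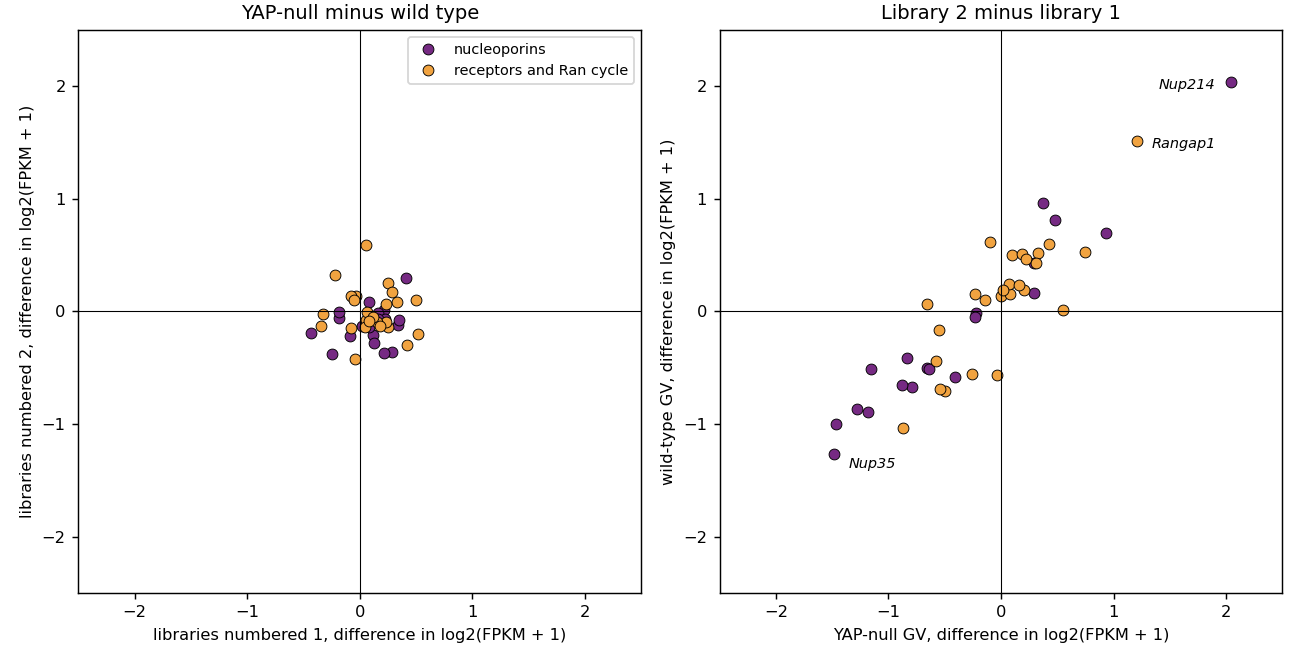
Differences in log2(FPKM + 1) among the 45 genes measured in GV oocytes, purple nucleoporins and orange receptors and Ran cycle genes. Left, YAP-null minus wild type for libraries numbered 1 (x) and 2 (y); right, library 2 minus library 1 in YAP-null (x) and wild-type (y) oocytes, where Nup214 reaches 2.04 on both axes and Nup35 -1.48 and -1.26.

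At the 4-cell stage each genotype had 1 library, so the comparison has no replicate check and no test, and it describes 2 libraries rather than 2 genotypes. Of 45 genes that averaged at least 1 FPKM over both, 3 were at least 2-fold higher in YAP-null embryos (Kpna7, Nup62 and Ipo8) and 3 at least 2-fold lower (Nup133, Ipo5 and Xpot). Over all 10854 genes 17.7% were higher and 9.97% lower by this size. The split between higher and lower depended on scaling: 2 and 5 with median-ratio scaling, 3 and 1 with equal sums, and 2 and 2 with quantiles.

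Kpna7 had 18.5 FPKM (YAP-null) and 1.62 FPKM (wild type) in 4-cell embryos, 11.4-fold higher in the YAP-null library (2.89 on the log2(FPKM + 1) scale). The authors' bounds for these values, whose confidence level is not given, were 15.4 to 20.5 and 1.07 to 2.15 FPKM and do not meet. Ipo8 was 2.24-fold higher in the YAP-null library (1.05), at 14.4 FPKM (YAP-null) and 6.42 FPKM (wild type) in 4-cell embryos. Both genes were among those called lower at the 4-cell stage, and the 10 oocyte markers, all of them detected at 1 FPKM or more in YAP-null and 9 in wild-type 4-cell embryos, differed too, with sums of 1701 FPKM (YAP-null) and 179.6 FPKM (wild type). The part of this difference between the libraries in the Kpna7 and Ipo8 values was not tested. Of the 5 genes called lower at the 4-cell stage, 3 were above 0 and 2 at least 2-fold higher in the YAP-null library, against 75.2% and 38.9% of all genes called lower that were measured in both 4-cell libraries.

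Nup62 (chr7:52071790-52086176), of the central channel, had 207 FPKM (YAP-null) and 87.6 FPKM (wild type) in 4-cell embryos, a difference of 1.23 or 2.36-fold. The GV libraries lay between, at 90.8 and 111 FPKM (YAP-null) and 103 and 116 FPKM (wild type) in GV oocytes. Its locus overlaps the models of Atf5 (1.99 to 2.75 FPKM at the 4-cell stage) and Nup62-il4i1 (0 FPKM in YAP-null embryos, 0.693 FPKM in wild-type ones), so reads could be split between models. Nup133 (chr8:126421023-126473165) had 13.6 FPKM (YAP-null) and 33.1 FPKM (wild type) in 4-cell embryos, 2.44-fold lower in the YAP-null library (-1.23), and 11.8 and 7.20 FPKM (YAP-null) and 12.6 and 8.51 FPKM (wild type) in GV oocytes. Ipo5 and Xpot, both higher in embryos than in oocytes, were 2.06-fold and 2.07-fold lower in the YAP-null 4-cell library (-1.04 and -1.02).

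Smaller differences pointed mostly downward among receptors. Of the 27 receptors and Ran cycle genes 22 were below 0 (YAP-null minus wild type), against 47.8% of all genes. The count was 22 with median-ratio scaling, 21 with quantiles and 18 with equal sums, where 52.8%, 53.9% and 39.0% of all genes were below 0. All 3 Ran cycle genes were below 0 under each of these scalings, at -0.52 to -0.60 as deposited. Of the 18 nucleoporins 8 were below 0, and 7 to 10 under the 3 scalings. The median over the 45 genes was -0.22, against 0.05 over all genes, a gap of -0.27; the gap lay between -0.28 and -0.21 under the scalings. Of the 19 genes called higher at the 4-cell stage 17 were below 0 (15 with equal sums), against 64.7% of all genes called higher, and 2 were at least 2-fold lower, against 11%. Kpna2, with 630.0 FPKM (YAP-null) and 655 FPKM (wild type) in 4-cell embryos, and Kpnb1, with 106 FPKM (YAP-null) and 122 FPKM (wild type) in 4-cell embryos, were close to equal in the 2 libraries.

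**Figure D4:**
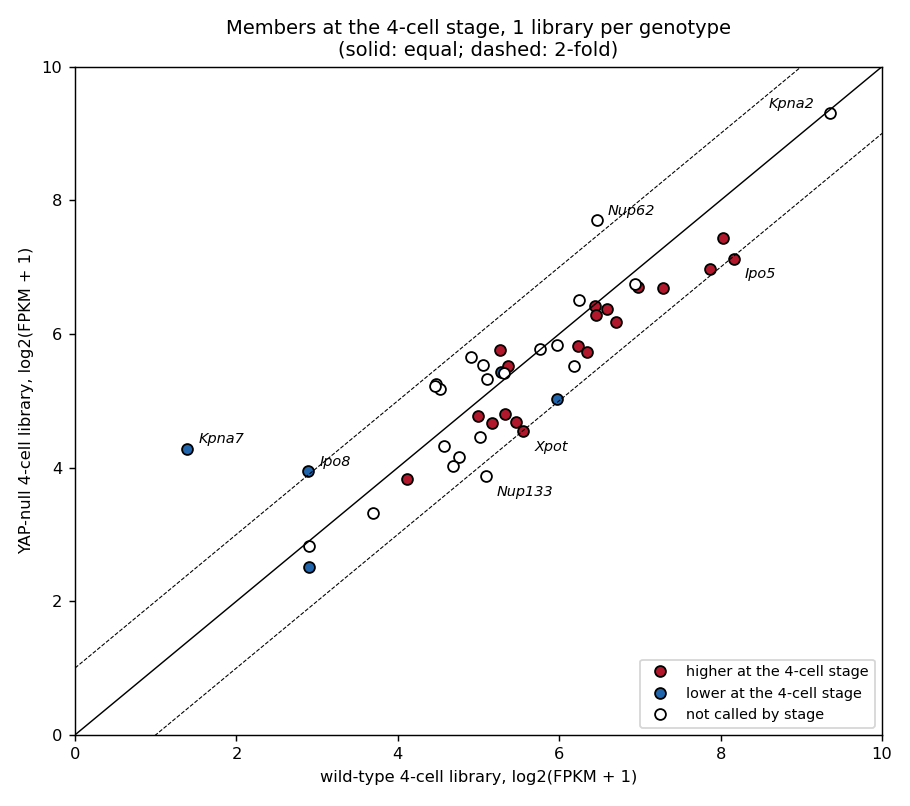
Log2(FPKM + 1) of the 45 genes in the wild-type (x axis) and YAP-null (y axis) 4-cell library, 1 point per gene, with lines for equality (solid) and 2-fold (dashed); red and blue mark genes higher and lower at the 4-cell stage. Most red points lie below equality (17 of 19), and Kpna7 stands farthest above it at 18.5 and 1.62 FPKM in YAP-null and wild type.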

How the data were processed

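Per the file headers, the authors deposited 1 table per library with an FPKM value, a lower and an upper bound for each of 23813 lines. The submitters' processing notes name CASAVA 1.8, TopHat and the mm9 build; TopHat's version, the tool behind the FPKM values, its annotation and any use of strand are not given in these sources. After dropping 1 failed line and adding up the lines of the 260 symbols with several loci, 23308 symbols were left. Coordinates of genes are those of the tables, counted from 1; promoters are RefSeq's in GRCm38.p6, and the builds were not mixed.

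Groups followed the titles. Genes averaging at least 1 FPKM in the libraries of a comparison were tested on log2(FPKM + 1) with limma 3.58.1 in R 4.3.3 (limma-trend, two-sided), with p adjusted by Benjamini-Hochberg over all genes and a threshold of 0.05. The stage fit (4-cell minus GV) used all 6 libraries with genotype as a term; the genotype fit in GV oocytes (YAP-null minus wild type) used 4 libraries and no replicate term, since the labels tie no number to a shared animal or day. The 4-cell genotype difference has 1 library a side and was described by a 2-fold size only. The fits were tested on simulated data first. Depth could be estimated only relative to wild-type GV library 1, so the precision of a single value is known only through the deposited bounds. For these genes their median half-width was 6.03% to 12.7% of the value per library, and 42 to 46 of the 47 values lay inside their own bounds. Kpna2 lay above its upper bound in all 6 libraries (655 FPKM against 587 to 617 FPKM in the wild-type 4-cell library). Among others, so did Kpna7 in wild-type GV library 1, and Ran, Ipo5 and Ipo7 in the wild-type 4-cell library.

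Values of every library are given for the importin alpha genes, for up to 8 further genes in each direction with the largest called stage difference, for up to 5 in each direction with the largest 4-cell genotype difference of at least 2-fold, for up to 3 in each direction whose GV genotypes did not overlap, for the 3 most abundant at each stage, and for up to 4 further pathway genes in each direction. Nup155, Nup214, Nup35, Rcc1, Kpnb1, Xpo5 and Tpr were added after their values were seen. The genes and lists were chosen with earlier results of these data known. Pseudocounts of 0.1 and 5, a filter of 5 FPKM or none, 3 scalings (quantile, median-ratio and equal sums), other fold sizes, each library left out and a replicate block were tried.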

Additional observations from a re-analysis of the deposited data

Results flagged for a closer look

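The genotype difference (YAP-null minus wild type) of Ipo7 had opposite signs at the stages, but its direction in GV oocytes is not settled. It was -0.91 at the 4-cell stage, where the YAP-null library was the lower one, and 0.30 ± 0.38 (SE) in GV oocytes. There the lower YAP-null value (4.657 FPKM, bounds 3.26 to 5.99) was barely above the higher wild-type value (4.647 FPKM, bounds 3.35 to 5.90). The gap between the stages was -1.21 on the log2(FPKM + 1) scale, and it was not tested.

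For Ipo11 the genotype difference was -0.78 at the 4-cell stage and 0.32 ± 0.38 (SE) in GV oocytes, again without overlap of the libraries. The gap between the stages was -1.11 and was not tested.

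Nup62 was higher in 4-cell embryos than in GV oocytes among the YAP-null libraries, by 1.03, and lower among the wild-type libraries, at -0.32. The YAP-null 4-cell library lay above both YAP-null GV libraries, and the wild-type one below both wild-type GV libraries. The gap of 1.35 was not tested.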

How the results depend on the processing

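Among the 15 alternatives to the stage test, the count of all genes called (6408) was 4215 without the YAP-null and 2965 without the wild-type 4-cell library, and 2965 to 6332 over the 6 libraries left out in turn. Leaving out a library gave 15 to 25 of the 45 pore and transport genes called (24 with all), 12 to 19 higher (19 with all) and 2 to 6 lower (5 with all); the lower count was 2 without the YAP-null 4-cell library and 3 without the wild-type 4-cell library or wild-type GV library 1. These fits have fewer samples. Kpna2, never called, changed sign from 0.01 to -0.21 with quantile scaling, -0.074 with equal sums, -0.11 without YAP-null GV library 2, -0.09 without wild-type GV library 2 and -0.01 without the wild-type 4-cell library (-0.11 to 0.14 over the libraries left out); the cause was not tested. Scaling moved the stage median of all genes from -0.10 to -0.21 (quantile), -0.18 (equal sums) and -0.05 (median-ratio). At the 4-cell stage, a size of 1.5-fold gave 7 genes higher in the YAP-null library and 12 lower (19 apart), and 4-fold gave 1 higher and 0 lower (1 apart), against 3 higher, 3 lower and 6 apart at 2-fold; 5 were lower with median-ratio and 1 with equal-sum scaling. For the 39 results on single genes and medians, the alternatives gave 507 further values: 448 kept direction and side of the threshold or moved within the replicate spread, 25 lost the call, 29 medians or sizes moved and 5, those of Kpna2, changed sign. In GV oocytes the median of the 45 genes was -0.12 with equal sums and 0.14 without YAP-null library 2, against 0.03. The importin alpha shares in GV oocytes moved by less than 1 SD, between 26.5% and 28.3% for Kpna7 and between 65.9% and 67.4% for Kpna2.

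In GV oocytes, libraries with the same number deviated together (correlation 0.849 over 10462 genes), but with 2 pairs and no shared animal or day in the labels the numbers were not taken as pairs. The replicate block called 2 genes, none of the 45 among them, against 0 without it; leaving out a library called 2 to 7 genes and again none of the 45. With a lone library on 1 side, it is assumed to vary like the other group. Without counts, low values such as Kpna1 in GV oocytes cannot be given a floor.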
